A study of Mus musculus with 6 samples.

Results

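GC-poor promoter regions are stretches of open chromatin at protein-coding promoters, here of mouse white preadipocytes, whose underlying DNA is poor in G and C. The peak lists of 6 libraries of the assay for transposase-accessible chromatin (ATAC-seq) were merged over chromosomes 1 to 19 into 262759 regions, and 174449 of them had a peak with a −log10 q over 2 in at least 2 libraries. A region was taken as a promoter region if it came within 1000 bp of the transcription start site (TSS) of a protein-coding transcript (GENCODE M21, mm10), which held for 23278 regions. It counted as GC-poor if G and C made up less than 50% of the 501 bp around its best summit, the summit with the highest −log10 p of any library. The rule gave 5148 GC-poor promoter regions, called members below, 22.1% of the promoter regions and 2.95% of all regions kept, with a TSS of 4387 genes within reach. The other 18130 promoter regions are called GC-rich here, and 117270 regions were GC-poor and lay away from protein-coding TSSs. At the threshold itself, 142 promoter regions had a GC share of 49.9% and 132 had 50.1%.

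The cells were preadipocytes, fibroblast-like precursors of fat cells, from the inguinal white fat of mice 8 to 12 weeks old. They grew to confluence on plates coated with collagen and were collected at day 0, before differentiation medium was given. WT mice were wild type and DKO mice were Hmgn1-/- and Hmgn2-/-, so they lack HMGN1 and HMGN2, nucleosome-binding proteins of the high mobility group N family, in every cell. Each genotype had 3 libraries, and the strain is labelled C57BL/6 for both. The labels do not say whether the 3 libraries of a genotype came from separate mice or cultures, so p-values measure only the spread between these libraries, which may be technical. The comparison asks whether the loss of HMGN1 and HMGN2 moved GC-poor promoters within the open chromatin of the preadipocyte.

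Mammalian promoters fall broadly into those inside CpG islands, which are rich in G and C and serve widely expressed genes, and those outside them, which more often carry a TATA box or binding sites of factors made in few tissues and more often serve genes active in few cell types. In ATAC-seq the Tn5 transposase cuts DNA that is free of nucleosomes. CpG-island promoters are usually nucleosome-depleted in most cells, whereas many promoters of low CpG content open only where their activators bind. The insertion and the amplification of the fragments also depend on base composition, so that fold enrichment is not a pure measure of openness across GC content.

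Fold enrichment, the deposited value used here, divides the number of cut sites piled up at a summit by the number that the surrounding background of that library predicts. The value of a region in a library is its highest fold enrichment there, and its percentile rank is its place among all 174449 regions of that library. Each list held 299433 to 299620 peaks, because the authors kept a fixed number of peaks with the smallest p, so a region that is not listed has no value and shares the lowest rank. The lists did not reach equally far down. The least significant peak of chromosomes 1 to 19 had a −log10 p of 5.63 in WT replicate 3 and of 3.54 in DKO replicate 3, and 90.2% and 97.5% of the peaks of DKO replicate 3 and WT replicate 2 had a −log10 q over 2, against 100% in the other 4 libraries. As a check of the genotypes, the region just upstream of the Hmgn2 TSS had fold enrichments of 7.89, 7.53 and 9.45 in WT and was listed in no DKO library. The region at the Hmgn1 TSS was listed in all 6 libraries, at 12.6, 13.9 and 20.1 in WT and 14.9, 16.3 and 14.4 in DKO, and it does not test the deletion unless the deleted part lies there.

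Of the 35 members with a TATA box, 4 are shown for the form of such a promoter. They serve Mmp1b, a matrix metalloproteinase, Ccl7, a monocyte-attracting chemokine, Serpinb2, an inhibitor of plasminogen activators, and Cavin4, a caveolar protein of muscle. Each run below ends 10 bases past the annotated TSS, is written 5′ to 3′ on the strand of the gene (GRCm38, mm10), and has the TATAAA hexamer in capitals.
Mmp1b (chr9:7388037-7388107, minus strand): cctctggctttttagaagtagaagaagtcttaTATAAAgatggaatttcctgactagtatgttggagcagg
Ccl7 (chr11:82045652-82045722, plus strand): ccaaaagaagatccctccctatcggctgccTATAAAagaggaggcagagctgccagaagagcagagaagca
Serpinb2 (chr1:107511363-107511433, plus strand): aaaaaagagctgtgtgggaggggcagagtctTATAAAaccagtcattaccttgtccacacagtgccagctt
Cavin4 (chr4:48663454-48663524, plus strand): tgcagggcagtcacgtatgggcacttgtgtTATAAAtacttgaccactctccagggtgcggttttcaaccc

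The first base of the hexamer lay 28 bases before the TSS at Mmp1b, 30 at Ccl7, 29 at Serpinb2 and 30 at Cavin4. Searched on the gene's strand 40 to 20 bases before the TSS, TATAAA stood at 35 of the 1708 TSSs inside GC-poor regions (2.05%), at 154 of the 19675 TSSs inside GC-rich regions (0.783%) and at 730 of 39535 protein-coding TSSs in all (1.85%). The members with a TATA box included chemokine genes (Ccl7, Ccl8, Ccl12), genes of the cornified envelope (Ivl, Lor, Sprr1a, Lce6a), matrix metalloproteinases (Mmp1b, Mmp10) and histone genes. Their median rank was 61.8, and that of the 1162 members with a TSS inside and no TATA box was 71.8.

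The next runs are from members that recur in the results. Ccdc77, a gene for a coiled-coil protein, and Nat2, an arylamine N-acetyltransferase, had 2 of the highest ranks, and their runs start 100 bases before the TSS and end 20 past it. Il6, the cytokine interleukin 6, and Trim30a, an interferon-induced gene, are shown for 100 bases on each side of the best summit. The capitals mark the letters of CCAAT, which NF-Y binds, of the GC box GGGCGG, of the AP-1 site TGACTCA or TGAGTCA, of the C/EBP site TTGCNNAA and of the interferon-stimulated response element, on either strand. The GC box was searched only in Ccdc77 and Nat2, the interferon element only in Trim30a, and AP-1 and C/EBP only in Il6.
Ccdc77 (chr6:120357409-120357529, minus strand): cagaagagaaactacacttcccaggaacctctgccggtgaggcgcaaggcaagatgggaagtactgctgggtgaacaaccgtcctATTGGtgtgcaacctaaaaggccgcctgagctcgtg
Nat2 (chr8:67494758-67494878, plus strand): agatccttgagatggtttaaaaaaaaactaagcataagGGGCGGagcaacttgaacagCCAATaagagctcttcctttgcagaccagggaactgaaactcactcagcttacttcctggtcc
Il6 (chr5:30012822-30013022, plus strand): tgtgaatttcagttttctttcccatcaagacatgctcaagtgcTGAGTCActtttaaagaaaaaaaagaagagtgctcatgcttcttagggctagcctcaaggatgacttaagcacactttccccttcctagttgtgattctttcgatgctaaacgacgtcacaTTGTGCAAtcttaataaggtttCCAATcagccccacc
Trim30a (chr7:104465141-104465341, minus strand): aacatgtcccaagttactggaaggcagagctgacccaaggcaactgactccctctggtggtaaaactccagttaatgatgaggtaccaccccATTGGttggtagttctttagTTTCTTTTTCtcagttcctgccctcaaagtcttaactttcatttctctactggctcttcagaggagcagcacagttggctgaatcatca

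A matched run of letters is a description of the sequence and not a bound site. CCAAT stood 42 bases before the TSS of Nat2, where a GC box stood 62 bases before it, and its reverse complement 15 bases before that of Ccdc77 and 56 before that of Trim30a. Over the 501 bp window, CCAAT was found in 52.4% of GC-poor promoter regions, 43.7% of GC-rich ones and 52.2% of GC-poor regions away from TSSs, against 45.6% of all promoter regions. The GC box was found in 14.1%, 69.9% and 5.43% of them (57.6% of all promoter regions). AP-1 letters were found in 18.2%, 7.23% and 32.4% (9.66%), and C/EBP letters in 26.3%, 12.6% and 27.5% (15.6%). The letters TGTGGTC or TGTGGTT, bound by RUNX factors, were found in 19.5%, 11.1% and 23.2% (13.0%), and those of the interferon element in 8.92%, 4.25% and 8.51% (5.28%). For the AP-1, C/EBP and RUNX letters and for the GC box, the GC-poor promoter regions thus lay between the GC-rich promoters and the distal GC-poor regions. The part of base composition in these shares was not tested.

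Most members were not the core promoter of a tissue-restricted gene but a small region beside a TSS. Of the 5148 members, 1197 (23.3%) held a protein-coding TSS, against 61.3% of the GC-rich promoter regions. The best summit lay at a median of 614 bp from the nearest TSS in members and 153 bp in GC-rich regions, and within 100 bp of it in 13.6% and 40.4% respectively. Members were narrower, with a median width of 291 bp against 598 bp. Their median ratio of observed to expected CpG was 0.341 against 0.724, and their median GC share was 45.5% against 60.7%. GC fell below 40% in 638 members (12.4%), down to 28.7%. The 5 lowest values were at Jmjd1c (28.7%), a histone demethylase-like gene, Cp (29.9%), the copper carrier ceruloplasmin, Ogn (29.9%), the small proteoglycan osteoglycin, Igfbp7 (30.1%) and the germ cell gene Dazl (30.1%), and none of these regions held a TSS.

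**Figure D1:**
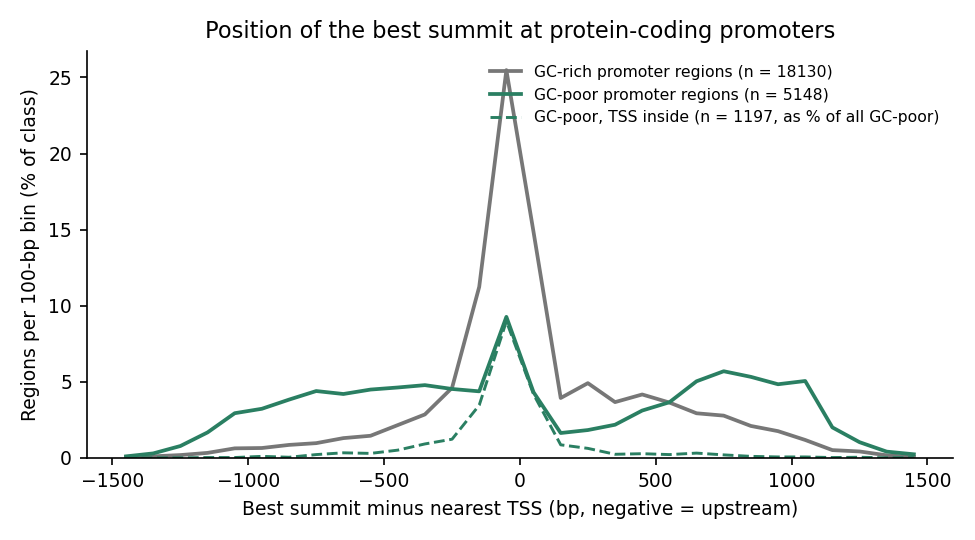
Distance of the best summit from the nearest protein-coding TSS (bp, negative is upstream) against the share of regions per 100-bp bin, for 18130 GC-rich and 5148 GC-poor promoter regions, with the 1197 GC-poor regions that hold a TSS as a dashed line. The GC-poor regions have a small peak at the TSS and broad shoulders on each side, where few of them hold a TSS.

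By these measures the members fell into 4 groups. In the largest, 3139 regions lay beside the TSS of a gene that had a GC-rich promoter region as well, and 812 lay beside the TSS of a gene that had none. A TSS lay inside 749 regions of genes without a GC-rich region and inside 448 regions of genes that had one. In all, 69.7% of members belonged to a gene with a GC-rich promoter region. Only the 749 fit the picture of a CpG-poor promoter as the sole listed promoter of its gene, and results are therefore given for them apart as well.

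The flanking regions were mostly weaker than the GC-rich region of the same gene. Among the 3139, the nearest GC-rich region of the gene lay at a median of 777 bp between summits, and the median ranks were 28.8 for the member and 81.2 for its neighbour. The member ranked higher in 649 pairs (20.7%), a share of 22.6%, 20.7% and 21.4% in the WT libraries and 19.8%, 19.2% and 18.4% in the DKO libraries, with every DKO library below every WT library. Where the member held a TSS of its own (448 pairs), the share by library overlapped between genotypes. It was 59.2%, 56.9% and 59.2% in WT and 55.6%, 58.0% and 54.9% in DKO. By mean rank, the member was higher in 263 of these pairs (58.7%), with median ranks of 67.3 and 53.8. Oxr1, a gene of the oxidative stress response, was of this kind. The GC-poor region at an internal TSS had a mean rank of 99.99 and the nearest GC-rich region, 41368 bp away, one of 61.5. Clec16a was an exception, with ranks of 87.2 and 91.0. Among flanking members, the region in an intron of Zpbp, a sperm acrosome gene, ranked at 99.9 and its GC-rich neighbour 578 bp away at 20.5, and the region upstream of Cxcl12, a stromal chemokine, at 91.8 against 26.5.

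The 8 members with the highest mean rank were near the top of every list. Oxr1 (chromosome 15, 41830588 to 41831208) had fold enrichments of 33.4, 30.8 and 36.6 in WT and 32.1, 32.8 and 31.7 in DKO. Ccdc77 (chromosome 6, 120357044 to 120357653) had 28.6, 25.9 and 34.7 in WT and 30.0, 30.1 and 31.0 in DKO. Nat2 (chromosome 8, 67494516 to 67495100) had 28.5, 25.5 and 31.3 in WT and 27.4, 25.9 and 25.2 in DKO. The genotypes overlapped at all 3 loci, with log2 changes of 0.04, 0.12 and −0.03. The others were Zpbp, Cntrl, a centriolar protein, Aga, a lysosomal amidase, Tomm40l, a mitochondrial import protein, and Cd300lg, a surface receptor of the immunoglobulin family. Of the 8 regions, 6 held a TSS, with best summits 13 to 91 bp upstream of it, and Zpbp and Cd300lg did not.

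Across libraries, members as a class ranked below GC-rich promoters and below the middle of the list. Their median rank was 42.0, 43.4 and 37.8 in WT and 42.1, 42.4 and 43.8 in DKO, so the genotypes overlapped. The means were 41.0 ± 2.93 (SD, n = 3) and 42.8 ± 0.924 (SD, n = 3), a difference of 1.75 that is smaller than the SD among WT libraries. The low value came from WT replicate 3, whose list reached the least far down. GC-rich promoter regions had medians of 68.6, 70.5 and 67.8 in WT and 72.7, 72.9 and 74.0 in DKO, with every DKO library above every WT library. GC-poor regions away from TSSs had 47.6, 48.2 and 48.9 in WT and 46.7, 45.6 and 47.1 in DKO, with every DKO library below every WT library. Some of these medians are ranks shared by tied regions, which limits how finely they can be compared. With 3 libraries against 3, no exact test of such a value can go below p = 0.1, and none was made.

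**Figure D2:**
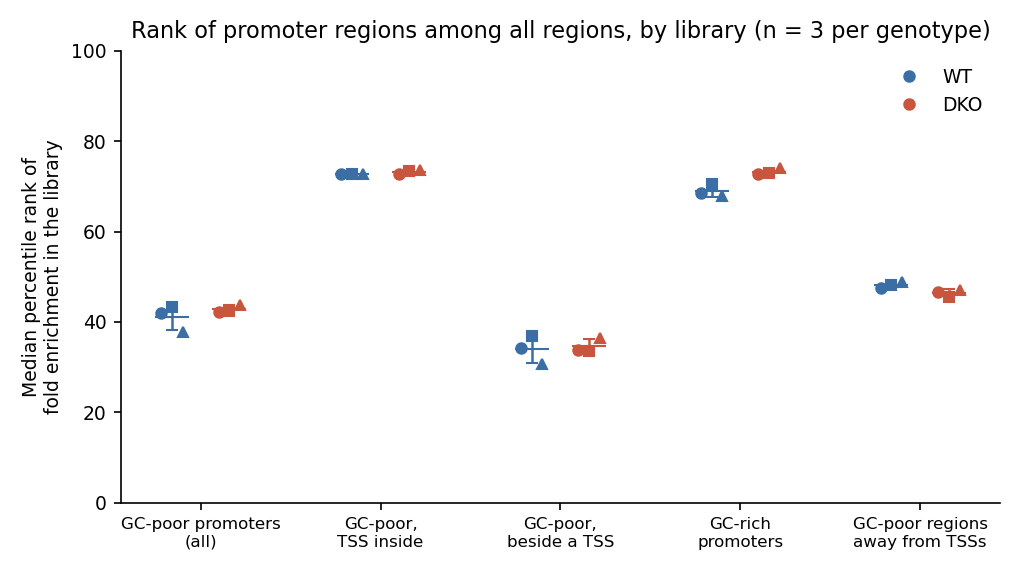
Median percentile rank of fold enrichment in each of 3 WT and 3 DKO libraries (points, one marker shape per replicate number) for 5 classes of region; horizontal bars are means and error bars SD over 3 libraries. Members with a TSS inside lie near 73 in all 6 libraries and members beside a TSS between 30.7 and 37.0, with WT and DKO overlapping in the latter.

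The class median hides a wide gap within the class. Members that held a TSS had medians of 72.7, 72.8 and 72.7 in WT and 72.8, 73.3 and 73.5 in DKO, a difference of 0.448. The 749 that were the sole kind of promoter of their gene had 77.0, 76.0 and 75.7 in WT and 75.6, 76.0 and 75.5 in DKO, and their order was the reverse, with a difference of −0.528 and overlapping values. Members beside a TSS had medians of 34.2, 37.0 and 30.7 in WT and 33.9, 33.6 and 36.6 in DKO. A peak was listed in all 6 libraries for 77.9% of members with a TSS inside and 46.4% of those beside one, against 74.6% of all GC-rich promoter regions. GC-rich regions with a TSS inside, the like class, stood above the members with a TSS inside, with 90.5% in all 6 libraries and mean median ranks of 85.9 in WT and 87.9 in DKO.

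Gene families differed in how often a GC-poor region was the only listed promoter. Over all 20696 protein-coding gene symbols, 6.09% had GC-poor regions alone, 62.9% had at least 1 GC-rich region and 31.0% had no region within 1000 bp of a TSS. Families with a housekeeping role stood low, at 2.11% of 95 ribosomal protein genes, 2.27% of 44 proteasome genes and 2.91% of 103 genes of the mitochondrial respiratory chain. Lists tied to few tissues varied. Several stood higher than all genes, at 22.1% of 77 immune cell genes, 19.9% of 151 genes of lymphoid surface receptor families, 19.9% of 136 interferon and antiviral genes, 16.7% of 30 endothelial genes and 15.3% of 59 liver genes. Others stood closer to it, at 9.09% of 66 contractile and muscle genes, 8.88% of 214 G protein-coupled receptor genes, and 7.51% of 293 nerve and synapse genes, and chemoreceptor genes stood below it, at 3.17% of 1514, of which 95.9% had no listed region. The highest share was in the 77 histone genes, at 24.7%, and these are short, clustered and alike in sequence. These shares are descriptions of lists that were chosen with results of these data known, and no list was tested.

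**Figure D3:**
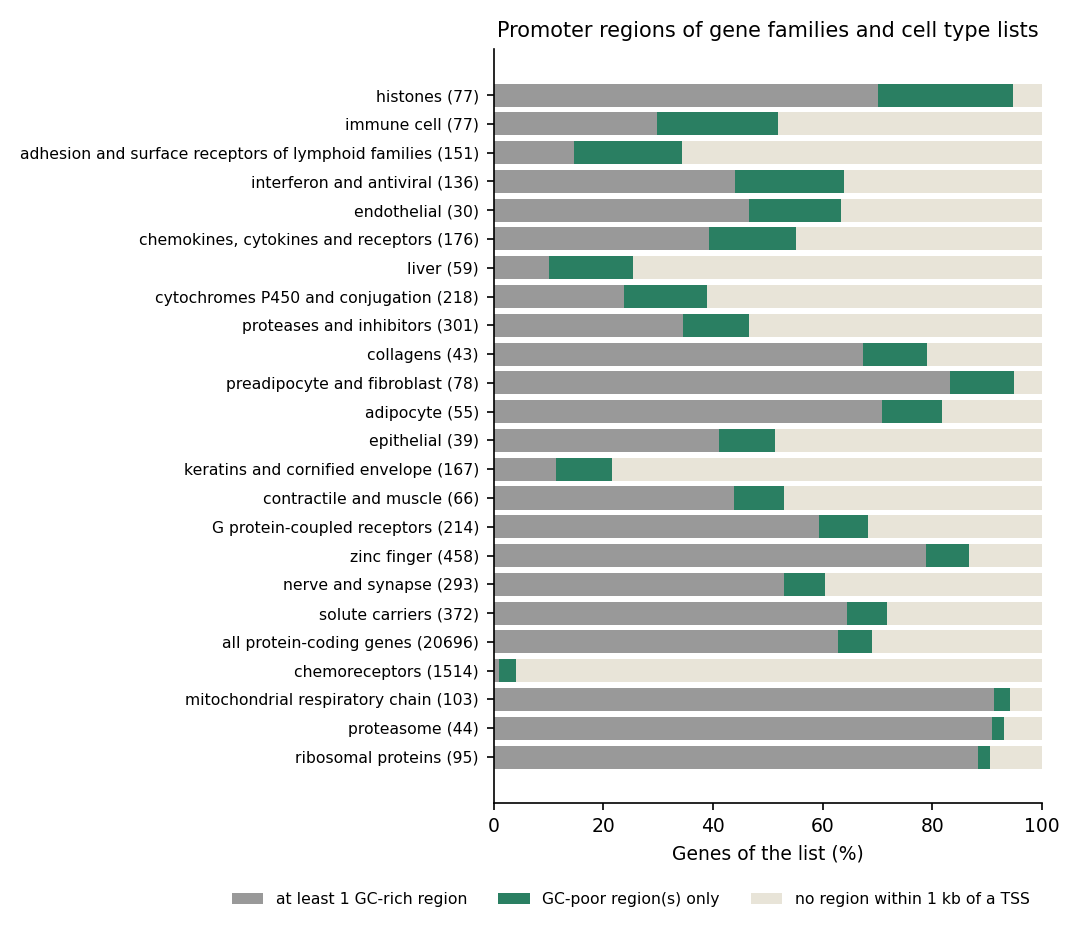
Share of the genes of 23 lists and of all protein-coding genes (number of genes in parentheses) with at least 1 GC-rich promoter region, with GC-poor regions only, or with no region within 1 kb of a TSS, ordered by the share with GC-poor regions only. Housekeeping lists lie at 2.11% to 2.91%, chemoreceptors at 3.17% and the immune cell list at 22.1%, against 6.09% of all genes.

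The shares were also taken among genes that had any listed promoter region. GC-poor regions were the only ones for 8.83% of the 14280 such protein-coding genes, and for 77.4% of 62 chemoreceptor genes, 9 of 15 liver genes, 57.7% of 52 lymphoid surface receptor genes, 47.2% of 36 keratin and cornified envelope genes, 42.5% of 40 immune cell genes and 38.8% of 85 genes of cytochromes P450 and conjugating enzymes. The share was 26.0% of 73 histone genes, 12.2% of 74 preadipocyte and fibroblast genes and 13.3% of 45 adipocyte genes. A listed promoter is not a transcribed gene, and transcripts were not analysed here. For chemoreceptors, histones, the Trim30 genes and other families of near-identical copies, reads can be placed on the wrong copy, so the values of a single member are uncertain.

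A log2 change below 0 was fitted for 45.8% of all members and 48.5% of all regions. Genes of the preadipocyte and fibroblast lineage had 41 GC-poor regions, of which 16 had a log2 change below 0 and none was called. Fap, a fibroblast surface protease, had the highest rank of them (94.6), at 16.4, 14.5 and 18.6 in WT and 16.2, 14.6 and 15.2 in DKO. Angptl1, a secreted angiopoietin-like protein, had 14.8, 8.97 and 14.2 in WT and 8.12, 9.09 and 8.89 in DKO, and the groups overlapped. Each of the 14 defining genes of this lineage had a promoter region, and for 11 of them the region with the highest rank was listed in all 6 libraries. The exceptions were Dlk1, listed in 5, and Lum and Cd248, each listed in 2. That region was GC-poor for Ly6a, Col3a1, Dcn and Lum and GC-rich for Pdgfra, Pdgfrb, Cd34, Dlk1, Thy1, Col1a1, Col1a2, Fbn1, Cd248 and Postn.

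Of 6 defining genes of the mature adipocyte, only Fabp4 had a promoter region, while Adipoq, Plin1, Cidec, Lep and Cfd had none in the regions kept. Fabp4 encodes the fatty acid-binding protein of adipocytes, and its region held the TSS and had 17.4, 15.9 and 17.4 in WT and 13.6, 14.2 and 12.9 in DKO. Every DKO fold enrichment was below every WT one, but the ranks overlapped, at 95.5, 96.4 and 92.5 in WT and 92.1, 92.5 and 92.8 in DKO. The change did not pass the test (log2 change −0.17, limma adjusted p = 0.491 over all regions). Other members of the adipocyte list were Retn (resistin, mean rank 87.8), Aqp7 (a glycerol channel, 81.9) and Ppargc1a (a coactivator of mitochondrial genes, 78.7), with log2 changes of −0.05, 0.21 and 0.04. None of the 17 regions of the list was called.

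Regions of genes of other cell types were also present. Of 7 defining immune genes, Csf1r and Cd68 had GC-poor regions in all 6 libraries, Adgre1 and Spi1 had GC-rich regions in 2 libraries each, and the others, Ptprc and Cd3e among them, had none. The Csf1r region, in an intron 1159 bp past the nearest TSS, had 14.8, 13.6 and 14.7 in WT and 12.7, 12.3 and 12.4 in DKO. Its ranks overlapped, at 92.1, 93.4 and 87.9 in WT and 90.7, 89.1 and 92.0 in DKO, and the fitted log2 change was −0.04 (limma adjusted p = 0.955). Csf1r encodes the receptor of macrophage colony-stimulating factor. Cd80, a costimulatory ligand, had a mean rank of 91.4, Lyz2, lysozyme, 83.6 and Fcer1g, a signalling chain of Fc receptors, 81.8. These were among the highest of the immune cell list, whose 24 regions had a median rank of 33.5. Of the 77 genes of that list, 37 had no region. Over the immune cell list, 8 of 24 regions had a log2 change below 0 and 16 above, with a median of 0.22, against 0.01 over all regions, and none was called. Whether other cells in the cultures contributed to these regions was not tested, and in bulk libraries fewer cells of a type cannot be told apart from less open chromatin in each cell.

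Of 5 defining endothelial genes, Pecam1 and Tie1 had a GC-poor region, Cdh5 and Kdr had GC-rich ones and Emcn had none. The Cdh5 region was listed in all DKO libraries, at 3.91, 7.09 and 4.26, and in no WT library, and the Kdr region was listed in all 6 with overlapping values. The region within reach of a Pecam1 TSS is nearer to Milr1, whose TSS lay 2 bp from its best summit, in a UTR of Milr1. This region had 16.9, 12.2 and 17.2 in WT and 11.1, 11.8 and 10.3 in DKO, without overlap but not called (log2 change −0.30, limma adjusted p = 0.297). Over the endothelial list, 8 of 11 regions had a log2 change below 0, with a median of −0.30. Of the 4 defining epithelial genes, Epcam and Krt5 had no region, and Cdh1 and Krt8 had GC-rich regions listed in at most 5 libraries. Over the wider epithelial list, 8 of 9 GC-poor regions had a log2 change below 0, with a median of −0.76. These were weak regions, at a median rank of 31.8, and several libraries had no peak, and none was called.

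Contractile genes, chemokines and interferon genes gave strong single members. Mylpf, a myosin light chain of fast muscle, had a mean rank of 98.6 in a region that Tbc1d10b shares, Casq1, a calcium store protein of muscle, 91.3, Mylk, myosin light chain kinase, 90.6, and Acta2, smooth muscle actin, 86.3. Il18 and Il6, both cytokines, had 98.3 and 96.3, and the Il18 region is shared with Bco2. Il6 had 18.3, 15.8 and 18.2 in WT and 17.4, 17.9 and 17.6 in DKO. Trim30d, Trim30a, Ifi27 and Ifi204, all interferon-induced, had mean ranks of 99.3, 98.8, 98.0 and 97.1. Of the 56 regions of the chemokine and cytokine list, 38 had a log2 change above 0 and 18 below, and of the 58 of the interferon list, 29 were on each side. No region of these lists passed the test.

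Solute carriers had 95 GC-poor regions, led by Slc17a8 (98.6), a vesicular glutamate transporter, Slc45a4 (98.4), Slc10a6 (95.1) and Slc7a11 (94.8), the cystine antiporter. Zinc finger genes had 144, led by Zfp738, Zfp40, Zfp317 and Zfp763 with mean ranks of 99.5 to 99.7, and 92 of the 144 had a log2 change above 0 (median 0.07). Histone genes had 49, of which 36 had a log2 change above 0 (median 0.12). Proteasome genes had 19, of which 14 lay above 0 (median 0.23), and liver genes 13, of which 10 lay below 0 (median −0.17). The median over all members was 0.03, with 45.8% of them below 0, and no member of the 23 lists was called in either direction.

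Each genotype comparison was fitted over all 174449 regions with limma on log2 fold enrichment after quantile normalization, a region without a peak taking the lowest fold enrichment of that list. At an adjusted p under 0.05, 3 members were lower in DKO and 0 were higher. The background was 0.0453% of all regions called lower and 0.0287% called higher, which for members compares with 3 of 5148. At an unadjusted p under 0.05 there were 204 members lower and 209 higher, together 8.02% of members against 11.6% of all regions. An absolute log2 change of 1 or more was fitted for 3.44% of members and 5.45% of all regions. The median log2 change, DKO minus WT, was 0.03 over members, 0.01 over all regions, 0.10 over GC-rich promoters and −0.03 over GC-poor regions away from TSSs. The median half-width of the 95% interval of a member's log2 change was 0.73, before adjustment over all regions. The size of change needed for a call differed between members. Ctxn3 was called at a log2 change of −0.85 ± 0.10 (SE), whereas Clec10a was not called at 1.99 ± 0.34 (SE).

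**Figure D4:**
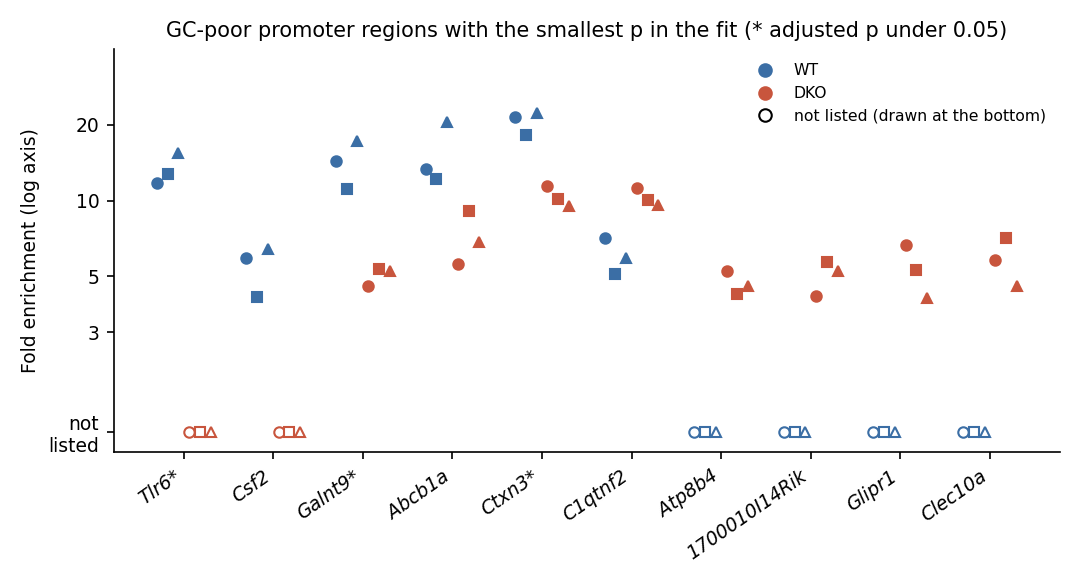
Fold enrichment (log axis) in each of 3 WT (blue) and 3 DKO (red) libraries for the 10 GC-poor promoter regions that the fit names, ordered by log2 change; open symbols at the bottom mark libraries in which the region was not listed. Asterisks mark the 3 members with an adjusted p under 0.05, Tlr6, Galnt9 and Ctxn3, where every DKO library lies below every WT library.

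The member called with the smallest p was the promoter of Tlr6, a toll-like receptor for bacterial lipoproteins (chromosome 5, 64959988 to 64960221, GC 38.1%). It held the TSS, with the best summit 27 bp upstream in an intron of another transcript of the gene. Fold enrichment was 11.8, 12.8 and 15.4 in WT, on pileups of 52, 57 and 72, and the region was listed in none of the DKO libraries. The fit gave a log2 change of −3.02 ± 0.25 (SE, adjusted p by limma 0.00263). That size depends on the lowest value given to libraries without a peak and is no bound. A second member, further into the gene, was also listed only in WT, at 3.99, 5.32 and 4.85, and did not pass the test (adjusted p = 0.16). By contrast, a region 1257 bp upstream of the summit was listed in all DKO libraries, at 5.36, 6.62 and 5.12, and in 1 WT library at 3.34 (limma adjusted p = 0.154). The promoter of the neighbouring gene Fam114a1 had 10.1, 8.33 and 9.74 in WT and 9.52, 9.01 and 7.35 in DKO. The sequence around the Tlr6 summit is given for 100 bases on each side, with its 6 CpG dinucleotides in capitals.
Tlr6 (chr5:64959974-64960174, minus strand): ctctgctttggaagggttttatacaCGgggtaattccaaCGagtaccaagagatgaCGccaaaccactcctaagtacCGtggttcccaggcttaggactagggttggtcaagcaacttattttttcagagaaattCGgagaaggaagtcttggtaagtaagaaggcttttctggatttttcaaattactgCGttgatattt

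Galnt9 encodes an enzyme that starts mucin-type O-glycosylation. Its GC-poor member (chromosome 5, 110604339 to 110604766, GC 41.3%) lay in an intron, 995 bp past a TSS. Fold enrichment was 14.3, 11.1 and 17.3 in WT and 4.60, 5.37 and 5.26 in DKO, on pileups of 106, 69 and 151 against 27, 32 and 22. Every DKO value lay below every WT value, and the log2 change was −1.30 ± 0.14 (SE, limma adjusted p = 0.0137). The region at that TSS, 980 bp away, was weak in both genotypes and listed in 2 libraries of each. A further region on that side of the summit, upstream of the TSS, was listed in all DKO libraries, at 4.95, 3.38 and 3.66, and in no WT library (log2 change 1.44, limma adjusted p = 0.166). A region 1491 bp further downstream had 6.38, 5.25 and 8.48 in WT and 6.57, 5.51 and 3.15 in DKO, and the groups overlapped. A stronger region further upstream had 9.59, 8.54 and 10.8 in WT and 7.55, 5.95 and 6.02 in DKO, without overlap but not called (log2 change −0.38, limma adjusted p = 0.361). The 201 bases around the summit hold 1 AP-1 match, TGAGTCA, and 1 match to the TEAD site ACATTCC or GCATTCC on the other strand, both in capitals.
Galnt9 (chr5:110604417-110604617, plus strand): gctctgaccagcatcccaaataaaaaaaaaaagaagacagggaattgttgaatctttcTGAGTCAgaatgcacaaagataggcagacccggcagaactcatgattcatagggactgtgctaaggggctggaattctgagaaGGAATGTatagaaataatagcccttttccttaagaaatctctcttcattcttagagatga

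Ctxn3 encodes cortexin 3, a small membrane protein known mainly from brain and kidney. Its member (chromosome 18, 57472308 to 57472831, GC 37.9%) held a TSS, with the best summit 218 bp past it in a UTR. Fold enrichment was 21.6, 18.2 and 22.4 in WT and 11.4, 10.2 and 9.50 in DKO, on pileups of 86, 76 and 90 against 43, 35 and 28. The groups did not overlap, and the log2 change was −0.85 ± 0.10 (SE, limma adjusted p = 0.0222). No neighbouring region was kept in the stretch searched around it, which for Tlr6 and Galnt9 held 6 and 7 others.

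None of the 3 calls held under every alternative. Each was lost when any 1 of the 6 libraries was left out, with adjusted p of 0.0712 to 0.241 for Tlr6 and 0.195 to 0.264 for Galnt9 and Ctxn3, although the log2 changes stayed between −3.10 and −2.95, −1.38 and −1.21, and −0.90 and −0.80. Without scaling, Galnt9 (log2 change −1.47, adjusted p = 0.0666) and Ctxn3 (−0.998, 0.0792) were lost as well in limma, and with a GC adjustment Ctxn3 was (−0.64, 0.0877). Called regions were also unevenly spread over the genome. Chromosome 5, which carries Tlr6 and Galnt9, held 29 of the 129 regions called in either direction (22.5%) and 5.99% of the regions tested. Of its 29 calls, 14 were lower and 15 higher in DKO. Chromosomes 7, 11 and 17 held 16, 14 and 14 calls, and chromosome 18, with Ctxn3, 9 (6.98% of calls, on 6283 of the 174449 regions). Hmgn1 and Hmgn2 lie on chromosomes 16 and 4, with 5 and 6 calls. The genetic background was not examined beyond the strain label, and a sequence difference between the WT and DKO stocks at these loci cannot be told apart from the loss of HMGN1 and HMGN2 in this design.

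The members nearest to a call had adjusted p-values above the threshold. C1qtnf2, a secreted C1q-related protein, was the highest of those listed in every library, at 7.10, 5.10 and 5.90 in WT and 11.2, 10.1 and 9.58 in DKO (log2 change 0.96 ± 0.16, limma adjusted p = 0.0789). Clec10a, a lectin of macrophages and dendritic cells, was listed in DKO only, at 5.84, 7.09 and 4.59 (adjusted p = 0.0804). Abcb1a, a drug efflux pump, had 13.4, 12.2 and 20.5 in WT and 5.59, 9.07 and 6.88 in DKO (log2 change −0.92 ± 0.18, adjusted p = 0.123). Glipr1, 1700010I14Rik and Atp8b4 were listed in DKO only and Csf2, a growth factor of granulocytes and macrophages, in WT only, with adjusted p from 0.12 to 0.135. Clec10a, Glipr1, 1700010I14Rik, Atp8b4 and Csf2, each listed in 1 genotype only, passed when the variance was moderated without its trend over level (eBayes without trend, limma adjusted p = 0.0133), while C1qtnf2 (0.0673) and Abcb1a (0.206) did not. That setting called 47 members lower (0.913%) and 36 higher (0.699%), against 1.19% and 1.18% of all regions, and 45 of the 47 and 34 of the 36 were listed in all libraries of 1 genotype and none of the other.

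Fold enrichment was lower in DKO across regions before scaling, with a median log2 change of −0.14 over all regions, so values without overlap in fold enrichment alone are read together with the fit. The fit was repeated without regions that lacked a peak in any library. Among the 2764 members with a peak in all 6 libraries, fitted over the 97204 such regions, 9 were lower and 3 higher at a limma adjusted p under 0.05, that is 0.326% and 0.109%, against 0.642% and 0.293% of all regions of that kind. Besides Galnt9, Ctxn3 and Abcb1a, the lower ones included Stard13, Fam229b, Tfec, Adcy10 and E430018J23Rik, with log2 changes from −0.90 to −0.37. E430018J23Rik had 24.2, 22.2 and 27.7 in WT and 17.8, 17.4 and 17.8 in DKO (adjusted p = 0.0493). The higher ones were C1qtnf2 and the genes for a chemokine, Ccl3, and a phosphatidylserine receptor, Havcr1. Ccl3 had 5.26, 3.7 and 5.87 in WT and 9.73, 7.11 and 7.24 in DKO (log2 change 0.90 ± 0.21, adjusted p = 0.0292). At Ccl3 and E430018J23Rik every DKO value lay on one side of every WT value. In the fit over all regions these 12, apart from Galnt9 and Ctxn3, did not pass.

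Counting members whose normalized values did not overlap between genotypes, 316 (6.14%) were lower and 423 (8.22%) higher in DKO. The background over all regions was 7.52% lower and 8.55% higher, so neither share of members stood above it. GC-rich promoters had 3.24% lower and 14.2% higher, and GC-poor regions away from TSSs 9.18% lower and 6.73% higher. Members with a TSS inside had 7.60% lower and 10.1% higher.

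Presence in the lists was counted as well, and the shares of members lay near those of all regions. A peak in all 3 WT and no DKO library was found at 71 members (1.38%, against 1.28% of all regions), and in all 3 DKO and no WT library at 47 members (0.913%, against 1.19%). Of those in WT only, Tlr6 ranked highest, and the next were Cdh17, an intestinal cadherin, at 4.67, 4.55 and 7.63, Csf2 at 5.90, 4.14 and 6.46, Kcng1, a potassium channel subunit, and Pcdhgb7, a clustered protocadherin. Of those in DKO only, the highest were Clec10a, Glipr1, 1700010I14Rik, Srek1, a splicing factor, and Atp8b4, a phospholipid flippase. Apart from Tlr6, these regions had fold enrichments of at most 7.63. They were chosen for this pattern, so their values are a description.

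The median log2 change also rose with GC content within the class, but the library medians of rank overlapped between genotypes in every promoter band under 50%. Under 35% these medians were 43.1, 41.6 and 36.85 in WT and 29.7, 37.3 and 37.4 in DKO. The median log2 change was −0.13 in the 78 promoter regions with a GC share under 35%, −0.03 in the 560 from 35% to 40%, 0.02 in the 1718 from 40% to 45% and 0.04 in the 2792 from 45% to 50%. It went on to 0.06 in the 3713 from 50% to 55% and to 0.19 in the 5192 at 65% and over, with no step at 50%. Regions away from TSSs followed the same order over a wider range, from −0.29 in the 4703 under 35% to 0.23 in the 624 at 65% and over. Whether the libraries of the genotypes differed in their bias for GC content was not tested.

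**Figure D5:**
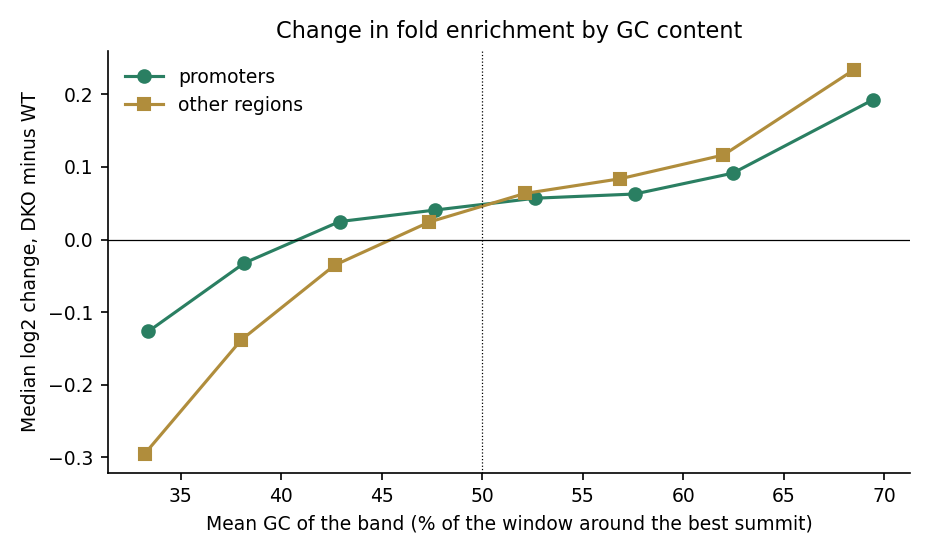
Median log2 change in fold enrichment, DKO minus WT, against the mean GC share of 8 bands, for promoter regions (circles) and other regions (squares); the dotted line is the 50% threshold of the rule. Both lines rise from left to right, from −0.13 to 0.19 in promoters and from −0.29 to 0.23 elsewhere.

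Members were also divided by motif. The median log2 change was 0.03 for the 938 members with AP-1 letters and 0.03 for those without, and for GC-poor regions away from TSSs it was −0.02 with and −0.04 without. It was 0.02 and 0.03 for C/EBP letters, 0.02 and 0.04 for CCAAT, 0.05 and 0.02 for the GC box, and −0.05 and 0.03 for the CTCF motif, which 88 members held. None of these differences was tested.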

How the data were processed

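The 6 libraries (3 WT, 3 DKO) had 1 deposited peak list each. Per the labels and the study's methods, the authors trimmed the reads (cutadapt 1.18), aligned them to mm10 with Bowtie2 2.3.4.3, removed duplicates and mitochondrial reads, and called peaks with MACS2 in each library alone. The file labels give a p threshold of 0.01, a fixed number of best peaks and a filter. The MACS2 version is not given in the sources used here. The deposited values are the fold enrichment at each summit (a ratio) and the −log10 p and −log10 q. Read totals were not analysed here. Solving fold enrichment and −log10 p for the pileup under the Poisson model of MACS2 gave whole pileups for 654 of 669 peaks of named members (within 0.01 of the −log10 p).

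Overlapping peaks were merged, regions filtered on −log10 q, and GC read from GRCm38 (Python 3.11.15, pandas 2.3.3, pysam 0.24.0). TSSs were 39540 positions of protein_coding transcripts in the GENCODE M21 basic set. The highest fold enrichment per region and library was log2-transformed with no pseudocount, unlisted regions taking the lowest value of their list, quantile-normalized and fitted with limma 3.58.1 (lmFit, eBayes with trend, two-sided, R 4.3.3), with Benjamini-Hochberg adjustment over all 174449 regions. The script was tested on simulated data. Named were members called or, up to 5 a direction, with the smallest p, the 8 highest ranks, up to 4 of the highest ranks per gene list (of which some are printed), the 5 lowest GC shares, and up to 5 listed in 1 genotype only, by the nearest TSS. Annotation is that of the best summit. The members and lists were chosen with earlier results of these data known, and the sequences, the division by TSS and GC-rich neighbour and the calls by chromosome after seeing them. Alternatives were other scalings, value columns, GC adjustment, left-out libraries and other cuts of the rule. A few named members and 1 sequence are not reported here.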

Additional observations from a re-analysis of the deposited data

How the results depend on the processing

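Across the 17 results followed, 162 of 229 recomputed values stayed on their side of the threshold, within the spread between libraries or, for counts, within 1.5 times. Of these, 5 small values changed sign, all of them median log2 changes or differences in median rank over members. None of the 10 genes followed, those called or with the smallest p, changed sign; other named members were not recomputed. The number of members called lower was 3, and it was 1 with no scaling, 9 with only regions listed in all 6 libraries, 47 with eBayes without trend, and 0 to 0 with any 1 library left out. The number called higher was 0, and it was 3 with only regions listed in all 6 libraries, 1 with −log10 p in place of fold enrichment (C1qtnf2), 36 with eBayes without trend (1.19% and 1.18% of all regions were lower and higher there), and 0 to 0 with any 1 library left out. With the replicate number as a block 0 were lower and 0 higher, and with the replicate block and a GC adjustment 0 and 0. The numbers do not pair the libraries, since same-numbered libraries correlated at 0.0058, −0.0074 and −0.0031 after removal of the group means. The GC adjustment alone left Tlr6 and Galnt9 called and lost Ctxn3. The median log2 change of members was 0.03, and −0.12 with no scaling, where that of all regions was −0.14. It ran from −0.01 to 0.05 with 1 library left out, the lowest without WT replicate 3. It was −0.00088 with −log10 p in place of fold enrichment. The difference in median rank was 1.75, ran from 0.106 (without WT replicate 3) to 2.93 (without WT replicate 2), and turned to −0.462 with GC below 45%, −0.31 with only regions listed in all 6 libraries and −0.528 for members with a TSS inside and no GC-rich region, each within the spread between libraries. Members numbered 2356 with GC below 45%, 8861 below 55%, 2877 within 500 bp of a TSS and, chosen after seeing the data, 1197 with a TSS inside and 749 of these without a GC-rich region. Members listed in WT only were 117 to 140 and in DKO only 79 to 109 when 1 library was left out, which relaxes the criterion to 5 libraries. A peak list of fixed length limits the weak members most, and the cause of these dependences was not tested.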
